A study of Mus musculus with 4 samples.

Results

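The genes described here are 10 mouse genes of iron uptake, storage, sensing and release: Tfrc, Slc11a2, Steap3, Fth1, Ftl1, Ncoa4, Slc40a1, Aco1, Ireb2 and Hmox1. They were chosen by symbol out of 50600 genes in the deposited count tables, and all 10 were found by gene ID. Messenger RNA was measured in 4 replicate libraries of primary T-helper 17 (Th17) cells, CD4 T cells that secrete IL-17, from strain C57BL/6NJ. The labels link a CD4 T cell differentiation protocol, give a single donor label for all 4 libraries, and state neither sex nor age. A time of 48 hours stands in the name of a counting output and in none of the labels. All 4 libraries belong to 1 group with no treatment and no control, so levels are set side by side between genes and between libraries. The labels do not say whether the replicates came from separate animals or cultures, so the p-values refer to these 4 samples only, and the spread among them may be technical.

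Library totals lay between 28555677 and 58104663 fragment counts, and the 10 genes together took between 0.280% and 0.286% of them. All 9 Th17 markers reached 1 TPM in every library, with a summed level between 17319 and 18032 TPM. TPM is a level per length: each count is divided by the exon length of its gene, and the results are brought to a common sum in each library. Of 9 macrophage markers, 2 reached 1 TPM in every library (Cd68 and Vcam1), 4 had 0 counts in all libraries (Lyz2, Marco, Spic and C1qa), and the summed level lay between 10.2 and 11.6 TPM. None of 9 markers of red blood cell precursors reached 1 TPM in every library, 5 had 0 counts in all of them, and their sum lay between 0.457 and 1.44 TPM. Of 2 CD8 T cell markers, Cd8b1 reached 1 TPM in every library, at 10.2 ± 1.07 TPM (SD, n = 4), and Cd8a did not. Among 5 dendritic cell markers H2-Ab1 reached it, at 1.45 ± 0.0611 TPM (SD, n = 4), and none of 5 B cell markers did. These are bulk RNA samples, in which fewer cells that make an RNA and less of it per cell cannot be told apart.

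Most cells take in iron bound to transferrin through the transferrin receptor, reduce it inside endosomes, and pass it into the cytosol through a divalent metal transporter. Iron that is not used is stored in ferritin, a hollow shell of heavy and light chains, and leaves the cell through ferroportin. A pair of iron regulatory proteins bind a short hairpin in messenger RNA, the iron-responsive element, when iron is scarce. Bound near the start of ferritin and ferroportin messengers they block translation, and bound in the 3′ untranslated region (UTR) of the transferrin receptor messenger they slow its decay. Activated T cells are known for a high demand for transferrin iron, which they need to divide.

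The hairpins are printed here because they are the shared feature of 5 of the 10 messengers, among them the 3 most abundant and the 1 without counts. They were found in GENCODE M21 transcripts (mm10) by a search of the sense strand for the loop CAGTGN, written in capitals, whose last base is A, C or T. The loop had to be preceded by 5 bases that pair with the 5 that follow it, G-T pairs allowed, and by an unpaired C just before that stem. Each line runs 5′ to 3′ and shows a few more bases on either side. The Fth1 site lies at chr19:9982733-9982759 on the plus strand and the Ftl1 site at chr7:45459780-45459806 on the minus strand, both in the 5′ UTR. The Slc40a1 site lies in the 5′ UTR at chr1:45925466-45925492 on the minus strand. The 4 Tfrc sites lie in the 3′ UTR on the plus strand, in order at chr16:32631220-32631246, chr16:32631599-32631625, chr16:32631664-32631690 and chr16:32631711-32631737. The Slc11a2 site, at chr15:100395153-100395180 on the minus strand in the 3′ UTR, matched only when 1 unpaired base on the 3′ side of the stem was allowed. Slc11a2 has 8 annotated transcripts, and counts taken per gene do not show how much of the level comes from those with the site.
Fth1: tcctgcttcaaCAGTGCttgaacggaa
Ftl1: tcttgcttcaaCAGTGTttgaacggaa
Slc40a1: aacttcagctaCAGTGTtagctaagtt
Tfrc site 1: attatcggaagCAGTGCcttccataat
Tfrc site 2: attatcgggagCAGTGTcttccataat
Tfrc site 3: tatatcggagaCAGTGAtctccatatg
Tfrc site 4: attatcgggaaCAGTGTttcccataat
Slc11a2: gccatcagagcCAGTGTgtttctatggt

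Of 20883 genes with an annotated 5′ UTR, 23 (0.1101%) held a fully paired match in it, and 3 of the 10 iron genes were among them. Of 21005 genes with a 3′ UTR, 100 (0.476%) held such a match, and with 1 unpaired base allowed 260 (1.24%) did. Tfrc was the 1 gene with 2 or more fully paired matches in a 3′ UTR. UTRs differ in length, a match is a description of letters, and binding was not measured. No match of either kind was found in the UTRs of Aco1, Ireb2, Steap3, Ncoa4 or Hmox1. A hairpin with another loop or a less well paired stem would be missed, in these genes and in those with matches, Tfrc included.

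**Figure D1:**
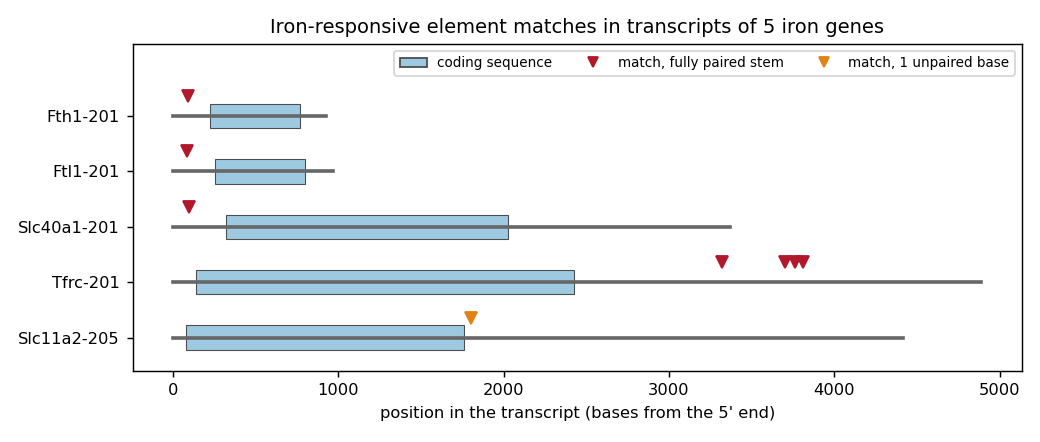
Positions of the hairpin matches (triangles) along 1 coding transcript of each of 5 iron genes, in bases from the 5′ end, with the coding sequence as a box. The matches of Fth1, Ftl1 and Slc40a1 start at bases 93, 84 and 96, ahead of the coding sequence, and those of Tfrc and Slc11a2 come after it.

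Of the genes of transferrin iron entry, the receptor messenger was abundant, the transporter messenger was moderate and the reductase messenger stayed below 1 TPM. Tfrc encodes transferrin receptor 1, which takes up transferrin-bound iron at the cell surface (ENSMUSG00000022797.15, chr16:32608920-32632794, plus strand, 6185 exonic bases). It was at 879.2, 885.5, 847.3 and 858.7 TPM in replicates 1 to 4, from 46410, 60668, 91639 and 68731 counts. The 4 libraries lay within 1.05-fold of each other, with a mean of 867.7 ± 17.7 TPM (SD, n = 4). Tfrc ranked 132nd of 10223 protein-coding genes that reached 1 TPM in every library, in the top 1.29%. Tfr2, the second transferrin receptor and a part of iron sensing in liver, was at 0.172 ± 0.0908 TPM (SD, n = 4). Tfr2 rested on 3, 12, 19 and 6 counts in replicates 1 to 4. Tfrc was higher in 4 of 4 libraries, with a log2 ratio to Tfr2 of 11.70 ± 0.51 (SD, n = 4) when 0.1 TPM was added to both levels, as in every log2 ratio of TPM given here. With 1 TPM added it was 9.54, so the size of this ratio depends on what is added.

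Slc11a2 encodes divalent metal transporter 1, which moves iron out of endosomes (ENSMUSG00000023030.16, chr15:100387898-100425072, minus strand, 6354 exonic bases). Its level was 21.8, 22.8, 22.0 and 21.7 TPM in replicates 1 to 4, with a mean of 22.1 ± 0.481 TPM (SD, n = 4). Replicate 2 was the highest library by a small margin. The Tfrc level was 39.3 times the Slc11a2 level, a log2 ratio of 5.29 ± 0.03 (SD, n = 4). Slc39a14, a transporter of the ZIP family that also carries iron, stood above Slc11a2: the log2 ratio of Slc11a2 to Slc39a14 was -1.49 ± 0.08, from 22.1 TPM for Slc11a2 and 62.5 ± 3.97 TPM for Slc39a14 (SD, n = 4). Slc11a1, the phagosomal relative of Slc11a2 known from macrophages, was at 0.200 ± 0.0987 TPM (SD, n = 4), from 9, 3, 11 and 13 counts in replicates 1 to 4. Slc11a2 was higher in 4 of 4 libraries. The log2 ratio of Slc11a2 to Slc11a1 was 6.28 ± 0.56 (SD, n = 4), and 4.27 with 1 TPM added in place of 0.1.

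Steap3 encodes the endosomal ferric reductase known from red blood cell precursors, where it prepares iron for the transporter (ENSMUSG00000026389.16, chr1:120190757-120272705, minus strand, 5715 exonic bases). It was covered by few fragments, with 25, 50, 58 and 37 counts in replicates 1 to 4. Those counts correspond to 0.513, 0.790, 0.580 and 0.5003 TPM, a mean of 0.596 ± 0.134 TPM (SD, n = 4). Replicate 2 was highest, and no library reached 1 TPM. The log2 ratio of Steap3 to Slc11a2 was -5.01 ± 0.23 (SD, n = 4), and -3.86 with 1 TPM added in place of 0.1. Steap4, a reductase of the same family, had 0 counts in every library. Set against a floor of 3 counts per library, the Steap3 level was at least 4.6-fold higher than that of Steap4 in the library with the lowest ratio. Steap1 and Steap2 also had 0 counts in every library.

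Both ferritin chains were among the most abundant messengers. Fth1, the heavy chain that oxidises iron as it enters the shell, was the highest of the 10 genes (ENSMUSG00000024661.6, chr19:9982703-9985092, plus strand, 866 exonic bases). It was at 2567, 2581, 2640 and 2502 TPM in replicates 1 to 4, from 18973, 24757, 39973 and 28041 counts. Its mean of 2572 ± 56.5 TPM (SD, n = 4) ranked 26th of 10223 genes, in the top 0.254%. Replicate 3 was the highest library and replicate 4 the lowest, within 1.06-fold of each other. Fth1 stood above Tfrc in 4 of 4 libraries per length, with a log2 ratio of 1.57 ± 0.05 (SD, n = 4). Fth1 is also the shorter of the pair, and in CPM, which scales counts to the library total and leaves length out, the log2 ratio turned to -1.27.

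Ftl1, the light chain that helps the iron core form (ENSMUSG00000050708.16, chr7:45457944-45459884, minus strand, 1340 exonic bases), was at 646.2, 663.0, 654.8 and 667.4 TPM in replicates 1 to 4. Its mean was 657.9 ± 9.37 TPM (SD, n = 4), rank 201 of 10223. The log2 ratio of Fth1 to Ftl1 was 1.97 ± 0.05 (SD, n = 4), and the heavy chain made up 79.9%, 79.6%, 80.1% and 78.9% of the ferritin messenger level in replicates 1 to 4. The Ftl1 level, and with it this share, is uncertain. Of 869 windows of 100 bases along the Ftl1 transcript, 527 (60.6%) also occur in transcripts of other loci: Ftl1-ps1, Ftl2-ps, Gm15590 and Gm47428. Fragments that map to several places were not counted, and 109 exonic bases of Ftl1 are shared on the same strand with the miRNA gene Gm22133, where fragments were not counted either. Divided by the whole length of its coding transcript in place of all exonic bases, Ftl1 came to 910.7 TPM and the heavy chain share to 73.9%. With only the unshared length of the coding transcript as divisor, judged by windows of 100 bases, Ftl1 came to 2314 TPM and the heavy chain share to 52.9%. Of 669 windows of 300 bases, 225 (33.6%) are shared, so the values over unshared length depend on the window length. In Fth1, 8 of 830 windows (0.964%) are shared, with Gm6977. The counts assigned to the copies themselves were few, 29 over all 4 libraries for Ftl1-ps1, 3 for Ftl2-ps, 5 for Gm15590 and 2 for Gm6977, against 44148 for Ftl1 and 111744 for Fth1. The mitochondrial ferritin Ftmt had 0 counts in every library.

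Ncoa4 encodes the receptor that carries ferritin to lysosomes for breakdown (ENSMUSG00000056234.14, chr14:32159865-32179855, plus strand, 4452 exonic bases). It was at 15.3, 16.8, 15.9 and 14.7 TPM in replicates 1 to 4, with a mean of 15.6 ± 0.898 TPM (SD, n = 4). Replicate 2 was highest and replicate 4 lowest. The log2 ratio of Ncoa4 to Fth1 was -7.35 ± 0.07 (SD, n = 4). Ncoa4 is uncertain in the same way as Ftl1. Of 3966 windows of 100 bases along its transcript, 1579 (39.8%) also occur in Gm6768. Ncoa4 came to 17.1 TPM over its coding transcript length and to 28.5 TPM over the unshared part of that length. Of 3766 windows of 300 bases, 1058 (28.1%) are shared.

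Slc40a1 encodes ferroportin, the exporter of iron from cells, known for its high level in macrophages that recycle iron (ENSMUSG00000025993.10, chr1:45908068-45926523, minus strand, 9000 exonic bases). It had 0 counts in all 4 libraries, whose counts sum to 166555672. A count of 0 allows up to 3 counts, which is 0.0391, 0.0301, 0.0191 and 0.0258 TPM in replicates 1 to 4, and 0.00666 TPM over the pooled libraries. These limits cover counting error only. None of the windows of its transcript is shared with another locus. The Tfrc level was at least 22511-fold higher than that of Slc40a1, and the Fth1 level at least 65726-fold higher, in the library with the lowest ratio. These bounds depend on length: over coding transcripts, of which that of Slc40a1 has 3370 bases, they were at least 10661-fold for Tfrc and 24611-fold for Fth1. The multicopper oxidases Heph and Cp, which act with ferroportin, had 0 counts in all libraries too. Hephl1, a relative of Heph, had 1, 6, 5 and 1 counts in replicates 1 to 4. Of 9 macrophage markers, Lyz2, Marco, Spic and C1qa were also at 0, while Cd68 and Vcam1 reached 1 TPM in every library. The others, Csf1r, Adgre1 and Cd163, had counts but stayed below 1 TPM. Csf1r was the highest of these, at 0.58 ± 0.24 TPM (SD, n = 4), from 35, 38, 42 and 18 counts in replicates 1 to 4.

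**Figure D2:**
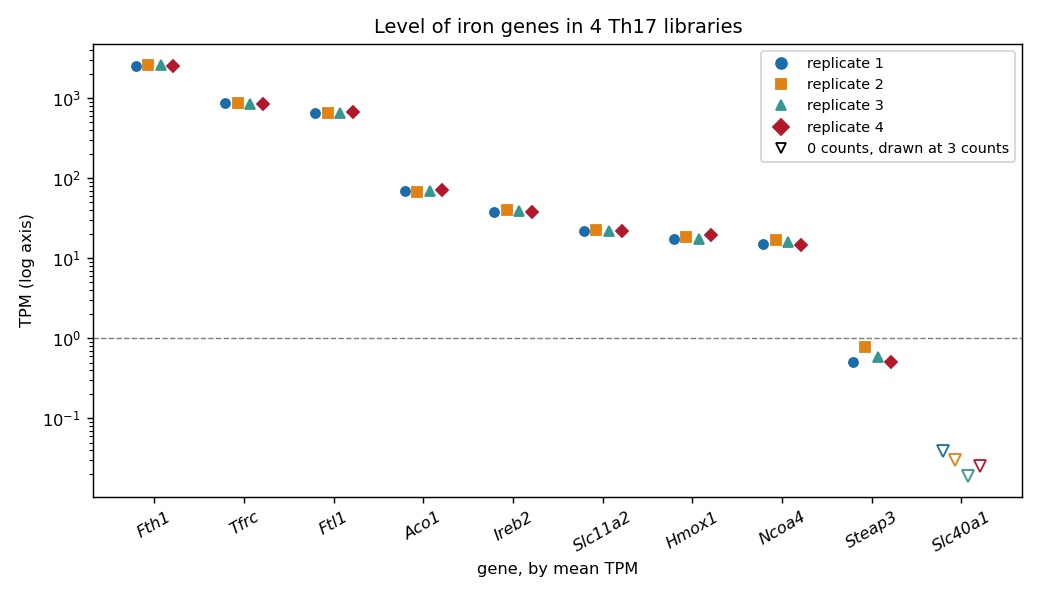
Level in TPM (log axis) of the 10 iron genes in each of the 4 Th17 libraries, ordered by mean, with the dashed line at 1 TPM. Fth1, Tfrc and Ftl1 stand between 646.2 and 2640 TPM, 5 genes between 14.7 and 71.2 TPM, Steap3 below 1 TPM, and Slc40a1, with 0 counts, is drawn at the level of 3 counts.

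Both iron regulatory proteins were expressed at the messenger level. Aco1 encodes iron regulatory protein 1, which is a cytosolic aconitase when it carries an iron-sulfur cluster (ENSMUSG00000028405.9, chr4:40143081-40198338, plus strand, 4496 exonic bases). It was at 69.6, 66.6, 68.8 and 71.2 TPM in replicates 1 to 4, with a mean of 69.1 ± 1.94 TPM (SD, n = 4). Ireb2 encodes iron regulatory protein 2, which is degraded when iron is plentiful (ENSMUSG00000032293.8, chr9:54863789-54912530, plus strand, 9479 exonic bases). It was at 38.5, 40.2, 39.0 and 38.4 TPM in replicates 1 to 4, with a mean of 39.0 ± 0.853 TPM (SD, n = 4). Divided by the 5770 bases of its coding transcript in place of all exonic bases, Ireb2 came to 64.1 TPM. Aco1, divided by its own coding transcript length, came to 81.0 TPM, and the log2 ratio of Aco1 to Ireb2 was then 0.34. Over all exonic bases the lowest library of Aco1 stood above the highest of Ireb2, and the log2 ratio was 0.82 ± 0.07 (SD, n = 4). Aco1 made up 63.9% ± 1.14 of their summed level (SD, n = 4). The order rests on length: in CPM the log2 ratio was -0.25. Fbxl5, the iron-sensing ligase subunit that marks iron regulatory protein 2 for degradation, was at 14.2 ± 0.650 TPM, and the log2 ratio of Ireb2 to Fbxl5 was 1.46 ± 0.03 (SD, n = 4).

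Hmox1 encodes heme oxygenase 1, the inducible enzyme that frees iron from heme (ENSMUSG00000005413.8, chr8:75093621-75100589, plus strand, 1751 exonic bases). It had 260, 363, 532 and 442 counts in replicates 1 to 4, which are 17.4, 18.7, 17.4 and 19.5 TPM, with a mean of 18.3 ± 1.05 TPM (SD, n = 4). Hmox2, the constitutive heme oxygenase, was at 93.4 ± 1.01 TPM, and the log2 ratio of Hmox1 to Hmox2 was -2.35 ± 0.08 (SD, n = 4). Hmox1 is also a macrophage gene, and the summed level of the 9 macrophage markers was between 10.2 and 11.6 TPM. The highest were Cd68 at 6.46 ± 0.574 and Vcam1 at 3.66 ± 0.501 TPM (SD, n = 4), and 4 had 0 counts. Whether macrophages had a part in the Hmox1 level was not tested.

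By mean TPM the genes ran in the order Fth1, Tfrc, Ftl1, Aco1, Ireb2, Slc11a2, Hmox1, Ncoa4, Steap3 and Slc40a1. Each of the 9 neighbouring pairs kept this order in 4 of 4 libraries, without overlap of their ranges. The pairs were set by the means of the same libraries, so their direction is a description with no test. The narrowest steps were Hmox1 over Ncoa4, a log2 ratio of 0.22 ± 0.13, Slc11a2 over Hmox1, at 0.28 ± 0.09, and Tfrc over Ftl1, at 0.40 ± 0.04 (SD, n = 4). Over unshared transcript length the Tfrc to Ftl1 ratio turned to -1.08 and the Hmox1 to Ncoa4 ratio to -0.48, so the places of Ftl1 and Ncoa4 in the order depend on the length used. The exact two-sided sign-flip test gave p = 0.125 for each of 15 pairs fixed by role, and 0.125 after Benjamini-Hochberg adjustment over them. That is the smallest p that 4 libraries allow, 2 of 16 sign patterns. Every pair with the same direction in 4 of 4 libraries gets it, whatever the size or spread of the ratio. It therefore adds nothing to the directions given.

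Of the 10 genes, 8 reached 1 TPM in every library, where 47% of 21764 protein-coding genes did. The median of mean TPM was 30.5 over the 10 genes and 0.575 over all protein-coding genes. Over detected genes alone it was 54.0 for the 8 iron genes and 31.3 for the 10223 protein-coding genes.

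**Figure D3:**
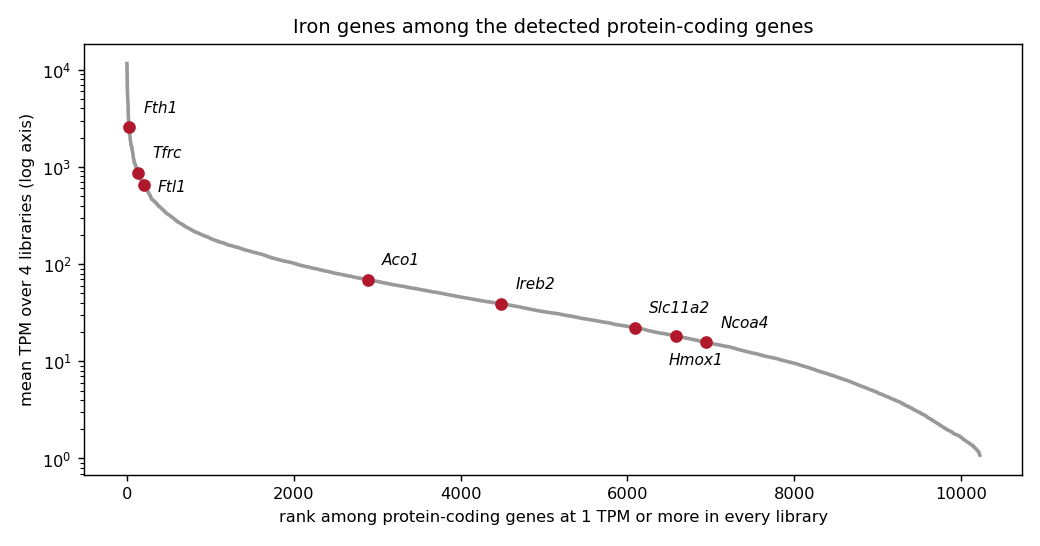
Mean TPM (log axis) against rank for the 10223 protein-coding genes that reached 1 TPM in every library (grey line), with 8 iron genes as points. Fth1, Tfrc and Ftl1 lie at ranks 26, 132 and 201, and the other 5 lie between ranks 2885 and 6945.

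The genes closest to Tfrc in level across the 4 libraries were Clic1, an intracellular chloride channel protein, Rps27a, a ribosomal protein made as a fusion with ubiquitin, and Psma6, a proteasome subunit. Closeness was the root mean square difference in log2(TPM + 0.1) over the 4 libraries, 0.03 for Clic1, 0.03 for Rps27a and 0.04 for Psma6. For Fth1 they included the ribosomal protein gene Rpl32, at 0.05, and the actin-binding Cfl1, at 0.085. Slc40a1 was level with 7029 protein-coding genes that also had 0 counts in every library.

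None of the iron genes was called as varying between libraries more than genes of its level. A negative binomial deviance at edgeR's trended dispersion, with Benjamini-Hochberg adjustment over 12434 genes, called 65 genes (0.523%). It could be run on 9 of the 10 genes, all but Slc40a1. None of the 9 was called, and the count at an unadjusted p under 0.05 was 0 as well, against 557 of 12434 genes (4.48%). The lowest unadjusted edgeR p was 0.359, for Steap3, and the adjusted p was 1 for each.

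The coefficient of variation (CV) was 2.20% for Fth1, 2.04% for Tfrc and 1.42% for Ftl1. It was 2.18% for Slc11a2, 2.19% for Ireb2 and 2.81% for Aco1. The median CV of 7905 protein-coding genes with a mean of 10 TPM or more was 3.54%, above the CV of each of these 6 genes. Hmox1 and Ncoa4 had CVs of 5.73% and 5.74%, where counting error alone gives 5.14% for Hmox1 and 3.48% for Ncoa4. Steap3 had a CV of 22.5%, of which counting error alone gives 15.9%. Against counting error alone, a Poisson deviance called 4550 of 12434 genes (36.6%), 4 of the iron genes among them: Tfrc at an adjusted p of 2.51e-10, Fth1 at 6.06e-10, Ftl1 at 0.0335 and Aco1 at 0.0440. The highest library was 1.04 times the lowest in Tfrc, 1.05 times in Fth1 and Ftl1, and 1.08 times in Aco1, on the scaled CPM of that test.

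**Figure D4:**
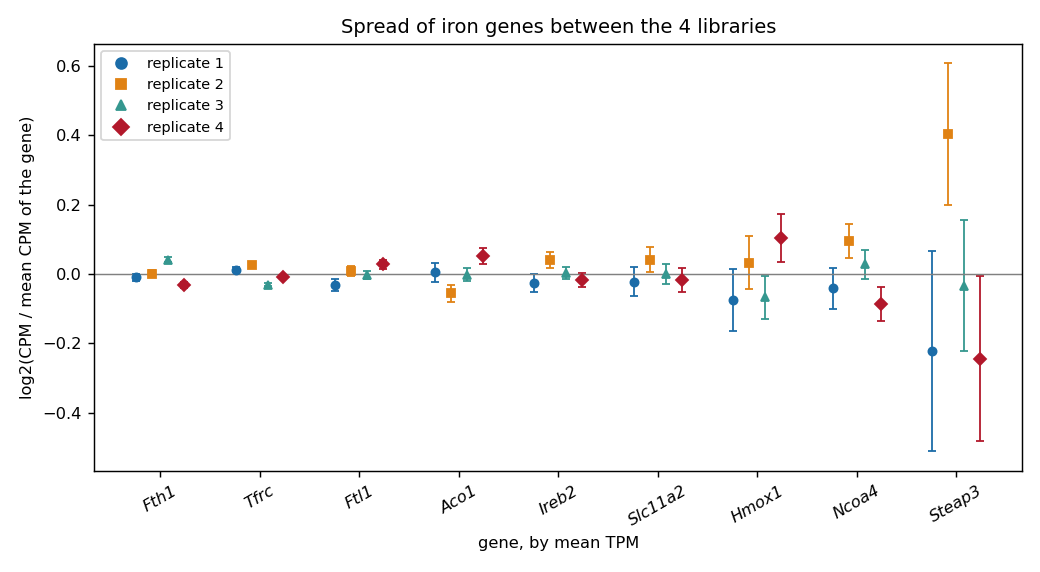
Deviation of each library from the mean CPM of the gene, as log2, for the 9 iron genes with counts, with bars of 1 SD of counting error. The points of Fth1, Tfrc and Ftl1 lie at most 0.04 from the line, and replicate 2 of Steap3, the gene with the fewest counts, lies highest.

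The rest of the pathway was described with 9 lists that hold 112 genes, 10 of them the iron genes above. Of the other 102 genes, 77 reached 1 TPM in every library, where 47% of protein-coding genes did. Every list gene with 0 counts in all libraries is named here.

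Of 19 genes of iron entry, 8 were detected, that is not below 1 TPM in any library. The median of mean TPM over all 19 was 0.200. The medians of the lists below are likewise over all of their genes, detected or not. After Tfrc came Snx3, a sorting protein that returns the transferrin receptor to the surface, at 426.7 ± 8.14 TPM, then Slc39a14 and Exoc6, a subunit of the exocyst complex, at 47.0 ± 1.77 TPM (SD, n = 4). Lcn2, Ltf, Steap1, Steap2 and Steap4 had 0 counts. Lcn2 and Ltf encode iron-binding proteins of neutrophil granules.

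Of 12 genes of iron storage, chaperones and release, 7 were detected, with a median of 16.3 TPM. The cytosolic iron chaperones Pcbp1 and Pcbp2, which deliver iron to ferritin, were at 1104 ± 11.03 and 729.0 ± 8.23 TPM (SD, n = 4). The Pcbp1 level was between 1.51 and 1.52 times that of Pcbp2 in every library, a log2 ratio of 0.60, which turned to -0.049 in CPM. Ftmt, Heph, Cp and Slc40a1 had 0 counts.

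Of 14 genes of iron sensing and the hepcidin axis, 7 were detected, with a median of 1.10 TPM. Cul1, the scaffold of the ligase that holds Fbxl5, was at 140.2 ± 1.15 TPM and Smad4, a mediator of BMP signals, at 60.5 ± 1.90 TPM (SD, n = 4). The hepcidin genes Hamp and Hamp2, the hemojuvelin gene Hfe2 and the BMP ligand gene Bmp6 had 0 counts. The hepcidin axis is known mainly from liver, and none of 3 liver markers reached 1 TPM.

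Heme synthesis was detected in 9 of 10 genes, with a median of 39.8 TPM. Cpox, coproporphyrinogen oxidase, was highest at 313.4 ± 16.7 TPM, followed by the mitochondrial unfoldase Clpx at 51.5 ± 1.25 and Alad at 50.4 ± 2.61 TPM (SD, n = 4). Alas2, the erythroid form of the first enzyme of the pathway, had 0 counts, while Alas1, its housekeeping form, was at 23.6 ± 0.720 TPM (SD, n = 4). Heme breakdown and transport was detected in 11 of 13 genes, with a median of 39.4 TPM. After Hmox2 came the heme-binding proteins Pgrmc1 at 93.0 ± 5.88 TPM and Pgrmc2 at 73.5 ± 1.74 TPM, and Por, which supplies electrons to heme oxygenase, at 51.5 ± 3.69 TPM (SD, n = 4).

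All 20 genes of mitochondrial iron and iron-sulfur cluster assembly were detected, with a median of 31.8 TPM. They were led by Hspa9, a mitochondrial chaperone, at 1024 ± 25.8 TPM and Glrx5, a glutaredoxin that passes on clusters, at 238.3 ± 11.7 TPM, then Isca2 at 105.3 ± 5.87 and Fdxr at 71.8 ± 2.86 TPM (SD, n = 4). All 9 genes of cytosolic iron-sulfur cluster assembly were detected, with a median of 75.0 TPM. The highest were Ciao2a at 242.8 ± 4.22 TPM, Nubp2 at 242.2 ± 9.21, Ciao2b at 109.1 ± 4.47 and Nubp1 at 79.5 ± 3.47 TPM (SD, n = 4). Nubp1 and Nubp2 encode the scaffold on which cytosolic clusters are built.

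All 7 regulators of Hmox1 and ferritin transcription were detected, with a median of 55.6 TPM. Bach2, a repressor known in lymphocytes, was at 183.7 ± 6.22 TPM, and Mafg, Mafk and Keap1 followed at 72.5 ± 1.72, 57.8 ± 2.22 and 55.6 ± 0.743 TPM (SD, n = 4). Bach1, the heme-sensing repressor of Hmox1, was the lowest of the list at 3.74 ± 0.137 TPM (SD, n = 4). Of 8 genes on a list named lipid peroxide defence, 7 were detected, with a median of 59.8 TPM. Acsl4 and Lpcat3 are on this list although they are not defence genes. They were led by Acsl4 at 324.5 ± 5.13 TPM, Slc3a2 at 176.7 ± 5.35, Gpx4, the peroxidase that clears lipid peroxides, at 130.8 ± 4.82, and Lpcat3 at 71.0 ± 1.42 TPM (SD, n = 4). Slc7a11, the cystine transporter chain that pairs with Slc3a2, was at 0.0891 ± 0.0266 TPM (SD, n = 4).

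**Figure D5:**
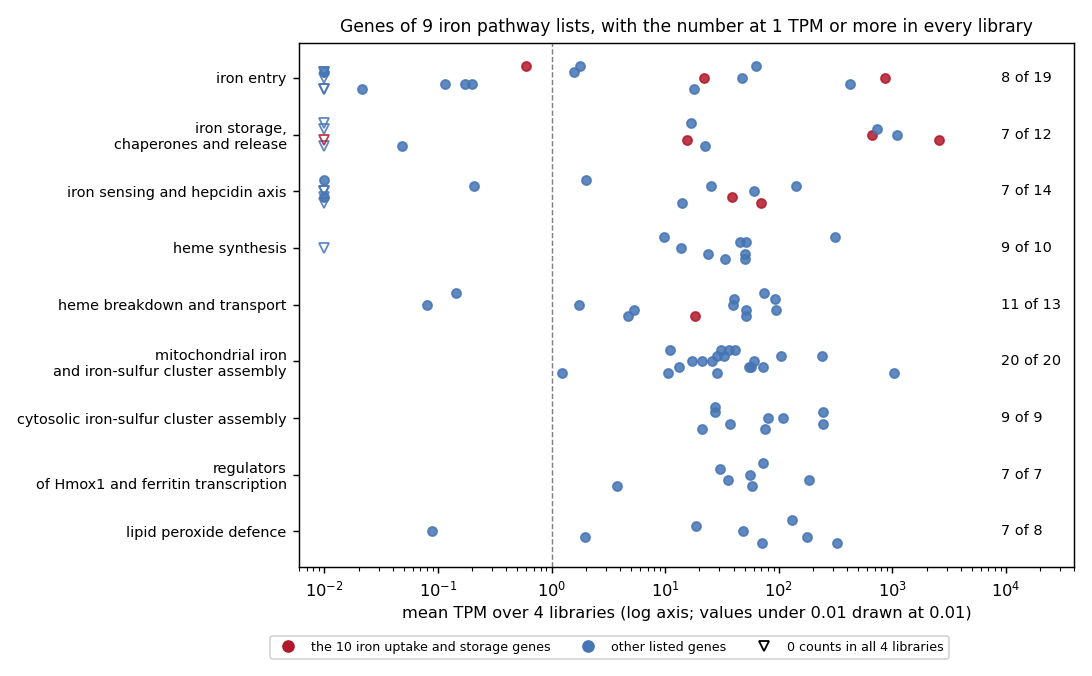
Mean TPM over 4 libraries (log axis) of the genes of 9 iron pathway lists, the 10 iron genes in red and the others in blue, with open triangles for genes with 0 counts in all libraries and the number detected at the right. Iron entry and the hepcidin axis hold many genes left of the 1 TPM line, and both iron-sulfur lists hold none.

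The variation test covered 86 of the 112 list genes and called 0 of them, beside 0.523% of all genes tested. An unadjusted edgeR p under 0.05 was found for 2 of the 86 (2.33%), against 4.48% of all genes tested: Maff at 0.0194 (adjusted p = 0.775) and Ciapin1 at 0.0255 (adjusted p = 0.899). The highest library was 1.33 times the lowest in Maff and 1.18 times in Ciapin1.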

How the data were processed

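Per the file headers, the authors deposited counts of fragments over exons of GENCODE M13 genes. They used featureCounts 1.4.6-p4 for read pairs with both ends mapped, with strand option 2 (reverse). The labels name mm10. An aligner was not given in the sources used here. The counting command had no option for multi-mapping fragments or for fragments over 2 genes, so these were left out. The assay label is total RNA-seq but the library protocol it links is for poly(A)+ RNA.

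TPM was computed from the deposited counts and exon lengths. Symbols came from GENCODE M21, which named 50376 of 50600 IDs. Pairs were compared as log2((TPM + 0.1)/(TPM + 0.1)). Pairs with a gene at 0 are given as bounds at 3 counts per library. Variation was tested with edgeR 4.0.16 (R 4.3.3): TMM, default filter, negative binomial deviance with 3 degrees of freedom. DESeq2 1.42.0 was an alternative.

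The members and lists were chosen with earlier results of these data known. All 10 members are described. Of each list the 4 highest genes, those at 0 and any called are named, as are the 3 genes nearest in level to Tfrc and Fth1, except for a few genes that are not reported here. Other list genes named in passing (Alas1, Bach1, Slc7a11, Bola3, Maff, Ciapin1, Fbxl5, Tfr2, Slc11a1, Hephl1, Cd163) were added after their values were seen or belong to a fixed pair.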

Additional observations from a re-analysis of the deposited data

Results flagged for a closer look

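A pair of values stood apart by a test of the gap to the nearest library over the whole range (Dixon's). It was run on 65 levels, ratios and shares, 2 of which passed it, and chance alone passes about 1 in 20. The log2 ratio of Fth1 to Tfrc was 1.64 in replicate 3 and between 1.54 and 1.55 in the others, a gap of 0.970 of the range. Cul1 was at 138.5 TPM in replicate 4 and between 140.8 and 140.9 TPM in the others, a gap of 0.929 of the range.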

How the results depend on the processing

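With CPM in place of TPM, 4 ratios turned: Fth1 to Tfrc to -1.27, Aco1 to Ireb2 to -0.25, Pcbp1 to Pcbp2 to -0.049 and Hmox1 to Ncoa4 to -1.12. CPM leaves out exon length, in which these genes differ. Over the unshared coding transcript length, an alternative chosen after seeing the data, Tfrc to Ftl1 turned to -1.08 and Hmox1 to Ncoa4 to -0.48. The unshared length came from windows of 100 bases, and a smaller part of the windows of 300 bases was shared in Ftl1 and Ncoa4. The ferritin heavy chain share was 81.2% with exon lengths reduced by 200 bases, 73.9% over coding transcript length and 52.9% over its unshared part. The Aco1 share was 55.8% over coding transcript length, shared or not. The other 178 of 184 alternatives for pairs kept their direction, and 70 of 70 for detection in lists and members stayed within 1.5 times. The number of variable genes was 113 with no filter on low counts, 4550 by Poisson deviance, 123 at the common dispersion and 18 when a 2-fold ratio was also asked, and between 32 and 49 with each replicate left out, which tests fewer samples. No iron gene was called except under the Poisson deviance. Levels moved by more than 1 SD in 29 of 80 alternatives, all of which changed the length or the genes in the TPM total. A length limited to windows unique in the whole genome was not run, since only transcripts were used here. No paired analysis was possible because all libraries belong to 1 group. Steap3, at 25 to 58 counts per library, is limited by depth.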

Other observations

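The hairpin search also matched 5′ UTRs of genes outside the 10. Alas2, the erythroid enzyme of heme synthesis, held a fully paired match and had 0 counts in all 4 libraries. Of the list genes with a match in a 3′ UTR, Bola3, a mitochondrial iron-sulfur cluster factor, was at 28.4 ± 2.37 TPM (SD, n = 4).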
